A study of Mus musculus with 8 samples.

Results

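Imprinted genes outside distal chromosome 7 were followed in hearts of mouse embryos at E10.5, in mid-gestation. They are 36 genes named by symbol from textbook knowledge of imprinting. The list was chosen with earlier results of these data known. All 36 symbols matched an Entrez gene ID among the 27179 genes of the deposited count table. Of these, 21 are expressed from the paternal and 14 from the maternal chromosome, some of them in certain tissues only. Gnas, the gene of the stimulatory G-protein alpha subunit, has transcripts of both kinds and was kept apart. The study sequenced RNA of 5 wild-type hearts (Kat6a+/+, called Kat6a WT) and of 3 hearts that had lost both alleles of Kat6a (Kat6a-/-, called Kat6a KO). Kat6a, also named Moz, encodes a histone acetyltransferase. The labels do not name the strain, the deleted part of the gene or any pooling of embryos, nor do they state that the hearts came from separate litters. The p-values therefore measure the spread between these hearts.

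Imprinted genes are transcribed from a single parental chromosome because DNA methylation laid down in the egg or the sperm marks a control region and is kept in the embryo. The zinc finger protein ZFP57 binds a methylated hexamer in such regions and recruits TRIM28, which holds the mark in place. Many imprinted genes regulate growth of the fetus and placenta: paternally expressed genes such as Igf2 tend to promote growth, and maternally expressed genes such as Igf2r and Grb10 tend to restrain it. A count per gene sums both parental alleles, so no value here shows from which chromosome an RNA came. In whole hearts, fewer cells of a type and less RNA per cell cannot be told apart.

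The promoters of the 3 genes that passed the test in Kat6a KO hearts (Plagl1, Asb4 and Copg2) and of Mest, which overlaps Copg2, are printed to show whether the ZFP57 core hexamer TGCCGC lies next to a start site. Each is the 250 bases before a RefSeq start, on GRCm38.p6 (the mm10 assembly). Capitals mark the hexamer, which in the 3 of these 4 windows that hold it occurs on the opposite strand and so reads GCGGCA. Plagl1 lies on the plus strand and its window is chr10:13090582-13090831. Asb4 lies on the plus strand, and the first of its 2 windows is chr6:5383136-5383385. The window of Copg2, on the minus strand, is chr6:30896795-30897044. For Mest, on the plus strand, the second of its 3 start sites is shown, chr6:30737800-30738049.
Plagl1: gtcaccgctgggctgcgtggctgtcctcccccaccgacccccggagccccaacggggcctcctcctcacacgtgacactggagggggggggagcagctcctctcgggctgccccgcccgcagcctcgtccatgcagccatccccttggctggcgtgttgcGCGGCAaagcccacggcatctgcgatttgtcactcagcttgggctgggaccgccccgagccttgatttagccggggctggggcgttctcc
Asb4: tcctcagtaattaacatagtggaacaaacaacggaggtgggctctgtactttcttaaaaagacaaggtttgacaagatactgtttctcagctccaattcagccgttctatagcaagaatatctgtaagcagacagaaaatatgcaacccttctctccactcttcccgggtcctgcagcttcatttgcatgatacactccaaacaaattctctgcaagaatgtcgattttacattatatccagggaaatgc
Copg2: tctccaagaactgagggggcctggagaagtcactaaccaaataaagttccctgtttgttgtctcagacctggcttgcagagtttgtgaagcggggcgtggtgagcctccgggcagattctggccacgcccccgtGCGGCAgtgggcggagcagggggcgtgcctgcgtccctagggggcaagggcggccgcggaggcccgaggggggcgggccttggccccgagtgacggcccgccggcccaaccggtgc
Mest: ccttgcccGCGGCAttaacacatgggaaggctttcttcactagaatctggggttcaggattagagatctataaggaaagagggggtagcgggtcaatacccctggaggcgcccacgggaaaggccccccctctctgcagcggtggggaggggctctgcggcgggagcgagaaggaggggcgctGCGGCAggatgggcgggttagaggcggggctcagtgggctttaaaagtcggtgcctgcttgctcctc
Plagl1 and Copg2 each held the hexamer once, the Mest window held it 2 times, and neither Asb4 window held it. The hexamer was searched as TGCCGC on both strands. Windows were found for 30 of the 36 genes, 45 windows in all, and 9 of the 45 held it (20.0%), against 8.68% of all 32851 windows of the same length in the table. The YY1 core AAGATGG was in 1 of the 45, the Ube3a window (2.22%), against 4.49% of all windows. The median number of CpG dinucleotides was 10 per window, against 6 over all windows. TGCCGC itself holds a CpG, and windows of like CpG number were not compared. A match is a run of letters and no evidence of binding. Windows of the same gene can overlap, as the last 2 of Mest do, and so share a match.

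Of the whole series, depth ran from 19911803 to 34539787 counts per heart, and 15086 genes had counts enough to be tested. Cardiomyocyte markers summed to 29771 to 32013 CPM (counts scaled to equal library size) in the 5 wild-type hearts, and the Kat6a KO hearts had 31619 to 34842 CPM. Xist, the RNA of the inactive X chromosome, was at 306 and 300.3 CPM in Kat6a WT replicates 4 and 5 and at most 0.372 CPM in the other 6 hearts, called hearts without Xist RNA, so an uneven mix of female and male embryos goes with genotype. Kat6a itself had 145 ± 6.92 CPM (SD, n = 5) in wild-type hearts and 137 ± 3.81 CPM (SD, n = 3) in Kat6a KO hearts (log2 fold change -0.08 ± 0.05 SE, adjusted p = 0.529, edgeR quasi-likelihood test). That count does not check the genotype labels. Epicardial markers ranged from 315 to 378 CPM across Kat6a WT hearts and from 220 to 261 CPM across Kat6a KO hearts, and 3 of 5 fell. Macrophage markers ranged from 3.79 to 10.2 CPM across Kat6a WT hearts and from 13.9 to 20.1 CPM across Kat6a KO hearts, and 4 of 4 rose. Neither marker list reached 0 in any heart. Erythroid markers summed to 1311 to 5631 CPM across Kat6a WT hearts, highest in replicate 4, and to 1937 to 3147 CPM across Kat6a KO hearts. The part of erythroid RNA in the co-variation between hearts was not tested. Immediate early and heat shock genes summed to 352 CPM in Kat6a KO replicate 1 and to 154 to 199 CPM in the other 7 hearts. Liver markers summed to 14.5 CPM in Kat6a KO replicate 3 and to 0.338 to 2.31 CPM in the other 7 hearts. Their part in the values of imprinted genes in that heart was not tested.

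In the wild-type heart the 36 genes spanned from Mest, a hydrolase-like protein, down to genes with a handful of counts. The members together took 1.46% to 1.57% of all counts across Kat6a WT hearts and 1.45% to 1.57% across Kat6a KO hearts. Paternally expressed members took 0.637% to 0.691% in Kat6a WT hearts and 0.631% to 0.687% in Kat6a KO hearts. Maternally expressed members took 0.640% to 0.677% and 0.615% to 0.693%. The ranges of the groups overlapped for all 3 sums.

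Levels between genes were compared per length, as CPM per kilobase of the deposited gene length. Mest stood first in Kat6a WT hearts with 1644 ± 89.6 (SD, n = 5). Grb10, an adaptor that dampens insulin receptor signalling, followed at 478 ± 20.7 and Igf2r, the receptor that carries IGF2 to lysosomes, at 369 ± 22.3. Gnas came next at 309 ± 12.7. The ranges of these 4 genes did not overlap in the 5 hearts. Peg3, a zinc finger protein, had 106 ± 4.86. Plagl1, a zinc finger transcription factor that regulates other imprinted genes, had 101 ± 3.15. Ndn, a MAGE-family growth suppressor, had 101 ± 6.16. The ranges of these 3 overlapped, so their order is not resolved. Commd1, a regulator of copper handling and NF-kappaB, closed the group of higher genes at 74.8 ± 1.88, below the range of Ndn.

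A middle group from Nnat (51.1 ± 5.19) to Asb4 (33.3 ± 3.95) held Copg2, Peg10 and Rian, and each overlapped the next in range. Sgce (25.4 ± 0.793) and Zim1 (23.7 ± 0.857) stood below it, and Ube3a, Ddc and Dlk1 overlapped each other from 20.5 ± 0.771 to 17.6 ± 3.79. Impact, an inhibitor of the kinase GCN2, had 12.2 ± 0.953. Ppp1r9a, Trappc9, Airn, Zdbf2, Peg13, Meg3, Zrsr1, Usp29, Mirg and Mkrn3 lay between 7.35 ± 0.401 and 1.33 ± 0.243. The other 7 genes were under 1 in the Kat6a WT mean: Nap1l5, Slc22a3, Magel2, Snrpn, Rtl1, Slc22a2 and Rasgrf1. Of these, Rtl1 (at most 14 counts in a heart), Slc22a2 (at most 3) and Rasgrf1 (at most 8) were under the count filter and entered no test.

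**Figure D1:**
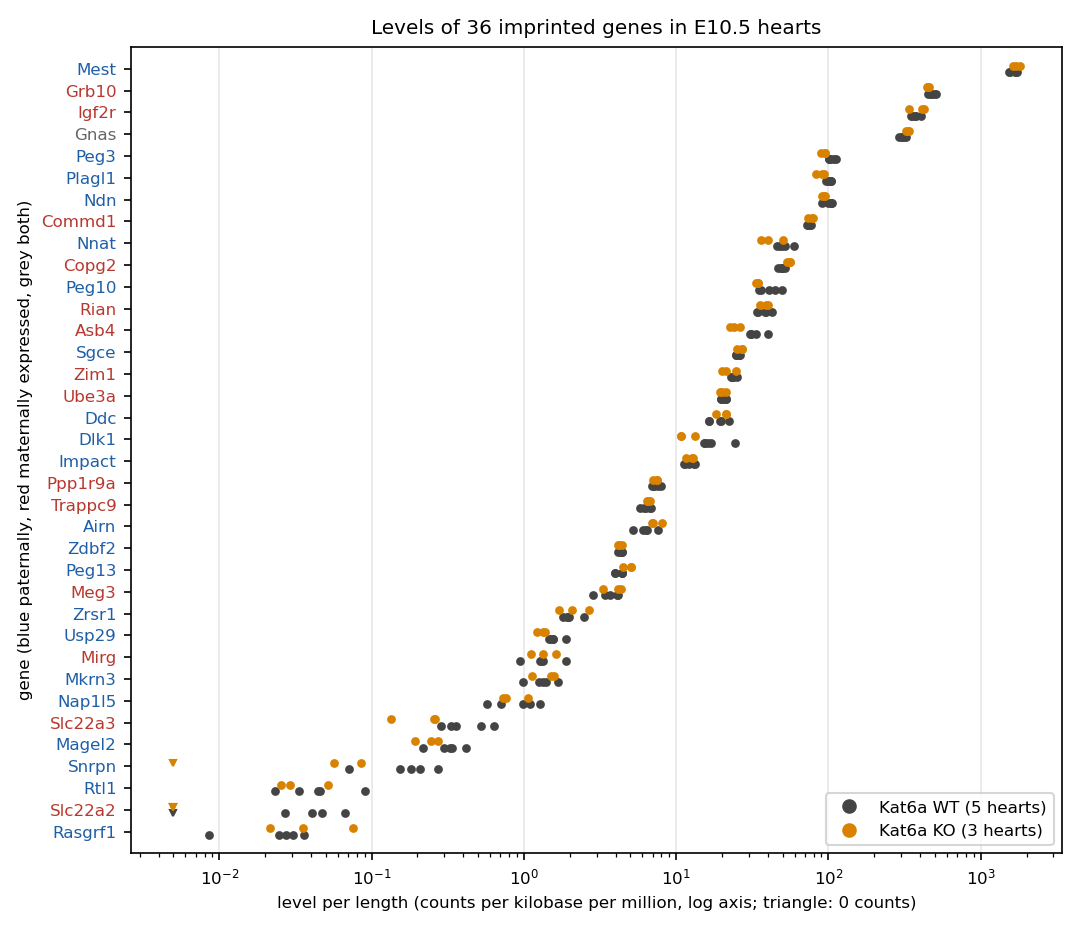
Level of each imprinted gene in each heart, in CPM per kilobase of gene length on a log axis, ordered by the Kat6a WT mean; dark points are 5 Kat6a WT hearts, orange points 3 Kat6a KO hearts, and triangles hearts with 0 counts. Mest stands alone at 1644 in Kat6a WT hearts and 7 genes lie under 1.

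Comparison of Kat6a KO with Kat6a WT hearts asked which imprinted genes change with loss of Kat6a. Of 33 members tested, Asb4 and Plagl1 fell and Copg2 rose, with changes of -0.46, -0.18 and 0.17 on the log2 scale. The other 30 did not pass the test. This is 9.09% of the members at an adjusted p under 0.05 (edgeR quasi-likelihood test, adjusted over all genes), beside 2.67% of all genes tested. Higher in Kat6a KO were 1 of 33 members and 1.44% of all genes, and lower were 2 of 33 members and 1.23% of all genes. Of the 19 paternally expressed members tested, 1 fell and none rose by that test (8 had an unadjusted p under 0.05). DESeq2 called 3 of 21 such members, beside 561 of 20446 genes, and limma voom 2 of 19, beside 370 of 15086 genes. Of the 13 maternally expressed members, 1 rose and 1 fell.

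Values of the groups did not overlap for 9 of 33 members (27.3%), beside 9.59% of all genes. The Kat6a KO hearts lay below all Kat6a WT hearts for 7 members (Slc22a3, Dlk1, Asb4, Usp29, Peg10, Plagl1 and Peg3) and above them for 2 (Copg2 and Peg13). Over all genes these shares were 4.81% below and 4.77% above. An unadjusted p under 0.05 was reached by 12 of 33 members and by 14.2% of all genes. The median log2 fold change was -0.11 over 19 paternally expressed members and 0.02 over 13 maternally expressed members, beside -0.00015 over all genes tested. Without Kat6a WT replicate 1 the paternal median was -0.011. In absolute value the median was 0.11 over the members and 0.09 over all genes.

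All 3 calls are sensitive to which hearts entered. With Xist as a covariate, or in the 6 hearts without Xist RNA, 0 members passed (281 genes of the whole table did in those 6 hearts). Without Kat6a KO replicate 1, 0 of 33 passed, and without Kat6a KO replicate 2, 0 of 33. Kat6a KO replicate 1 is the heart with the high immediate early genes (Egr1 at 55.7 CPM, against 10.99 to 15.3 CPM in the others), and their part in the calls was not tested. The fold changes of the 3 genes kept their direction in these fits.

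**Figure D2:**
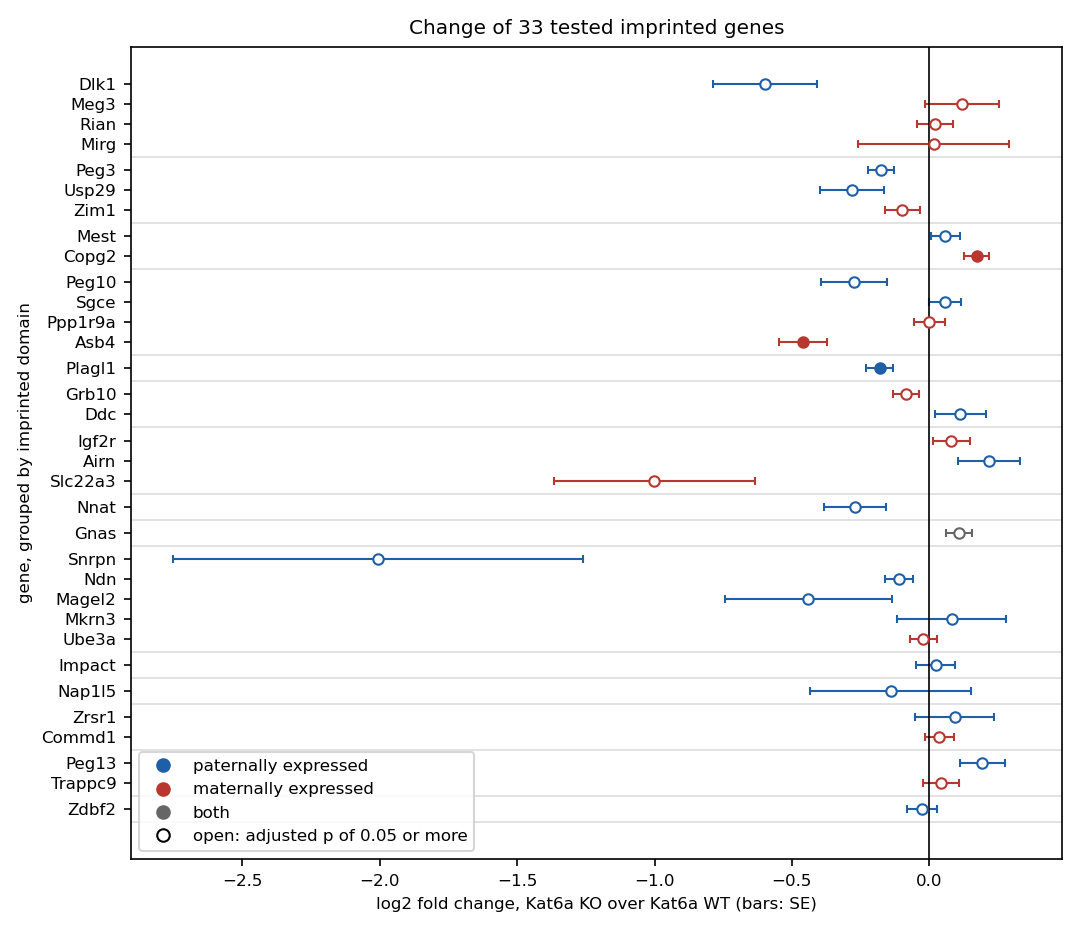
Log2 fold change of Kat6a KO over Kat6a WT with its SE for the 33 tested imprinted genes, grouped by domain; blue genes are paternally and red genes maternally expressed, and filled points passed the test. Asb4 (-0.46), Plagl1 (-0.18) and Copg2 (0.17) are filled, and Snrpn and Slc22a3, both of few counts, have the longest error bars.

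The domain of Peg10 on chromosome 6 held the change with the smallest p. Asb4, a maternally expressed subunit of a ubiquitin ligase, spans chr6:5383386-5433022 (Entrez gene 65255). In order of replicate number, the Kat6a WT hearts had 103, 132, 101, 102 and 110.3 CPM and the Kat6a KO hearts 74.1, 78.9 and 85.8 CPM; values of other genes below are in the same order. Every Kat6a KO heart was below every Kat6a WT heart, and Kat6a WT replicate 2 was the highest. The mean went from 109.5 ± 12.97 (SD, n = 5) to 79.6 ± 5.88 CPM (SD, n = 3). The log2 fold change was -0.46 ± 0.09 SE (adjusted p = 0.0139, edgeR quasi-likelihood test). The adjusted p of Asb4 rose to 0.0769 without Kat6a KO replicate 1 and to 0.0644 without Kat6a KO replicate 2, with log2 fold changes of -0.41 and -0.46. It was 0.0658 with Xist as a covariate and 0.0583 without the Xist hearts, with the log2 fold change at -0.49 in both. Epicardial markers were lower in the same Kat6a KO hearts. Of 4 cushion mesenchyme markers, 2 fell (Msx1 by -1.01 and Twist1 by -0.48, log2). Of 5 endocardial and endothelial markers, 1 fell (Npr3, -0.49) and 1 rose (Pecam1, 0.20). The part of any of these cell types in the fall of Asb4 was not tested.

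Peg10, a paternally expressed gene derived from a retrotransposon, lies 622868 bases before Asb4 (chr6:4747306-4760517). It had 233, 298, 239, 273 and 331 CPM in Kat6a WT hearts and 229, 228 and 224 CPM in Kat6a KO hearts. All 3 Kat6a KO hearts were below the lowest Kat6a WT heart, by a few CPM in the case of replicate 1, and the Kat6a WT hearts were widely spread. The log2 fold change of -0.27 ± 0.12 SE was not past the threshold (adjusted p = 0.364, edgeR). Sgce, a sarcoglycan gene whose span ends 101 bases from that of Peg10 and which is paternally expressed too, had 47.7 ± 1.49 CPM in Kat6a WT and 49.6 ± 2.14 CPM in Kat6a KO hearts (0.06 ± 0.06 SE, log2). Ppp1r9a, the maternally expressed actin-binding protein neurabin between Peg10 and Asb4, had 70.2 ± 3.83 and 70.2 ± 2.23 CPM. Neither Sgce nor Ppp1r9a passed the test (adjusted p = 0.737 and 0.998, edgeR). Within this domain the member nearest to Asb4 on the list, Ppp1r9a, thus had a log2 fold change near 0 while Asb4 fell.

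Plagl1, paternally expressed on chromosome 10 (chr10:13090832-13131694, Entrez gene 22634), fell by a small amount. Its values were 507, 546, 523, 545 and 537 CPM in Kat6a WT hearts and 492, 478 and 437 CPM in Kat6a KO hearts. The groups did not overlap, and Kat6a KO replicate 3 was the lowest. Means were 531 ± 16.6 (SD, n = 5) and 469 ± 28.7 CPM (SD, n = 3), a log2 fold change of -0.18 ± 0.05 SE (adjusted p = 0.0480, edgeR quasi-likelihood test). Leaving out any heart except Kat6a WT replicate 1 raised the adjusted p of Plagl1 above 0.05, to at most 0.213. In the 6 hearts without Xist RNA it was 0.158, with the log2 fold change at -0.16 ± 0.05 SE.

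Copg2 and Mest overlap at their ends on chromosome 6. Copg2, a subunit of the COPI vesicle coat that is maternally expressed in mouse, spans chr6:30747554-30896815 (Entrez gene 54160). It had 154, 161, 154, 153 and 145 CPM in Kat6a WT hearts and 168, 175 and 176 CPM in Kat6a KO hearts. The Kat6a KO hearts were all above the Kat6a WT hearts. Means were 153 ± 5.59 (SD, n = 5) and 173 ± 4.31 CPM (SD, n = 3), a log2 fold change of 0.17 ± 0.05 SE (adjusted p = 0.0461, edgeR quasi-likelihood test). Leaving out any heart except Kat6a WT replicate 2 ended the call of Copg2 (adjusted p at most 0.174), with log2 fold changes of 0.15 to 0.19. The Xist covariate gave 0.14 (adjusted p = 0.190, edgeR).

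Mest (chr6:30733506-30748466) shares 913 bases with Copg2 and lies on the opposite strand. Over 8 hearts it had 950961 counts, against 32705 of Copg2. The strand setting of the counting is not given. Reads in the shared bases may have been assigned to either gene or left out of both. The Copg2 count is thus uncertain. Mest itself had 4677, 4758, 4791, 4350.2 and 4248 CPM in Kat6a WT hearts and 5006, 4722 and 4520.1 CPM in Kat6a KO hearts. Its groups overlapped, with Kat6a KO replicate 1 the highest heart of all, and the log2 fold change was 0.06 ± 0.05 SE (adjusted p = 0.692, edgeR).

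**Figure D3:**
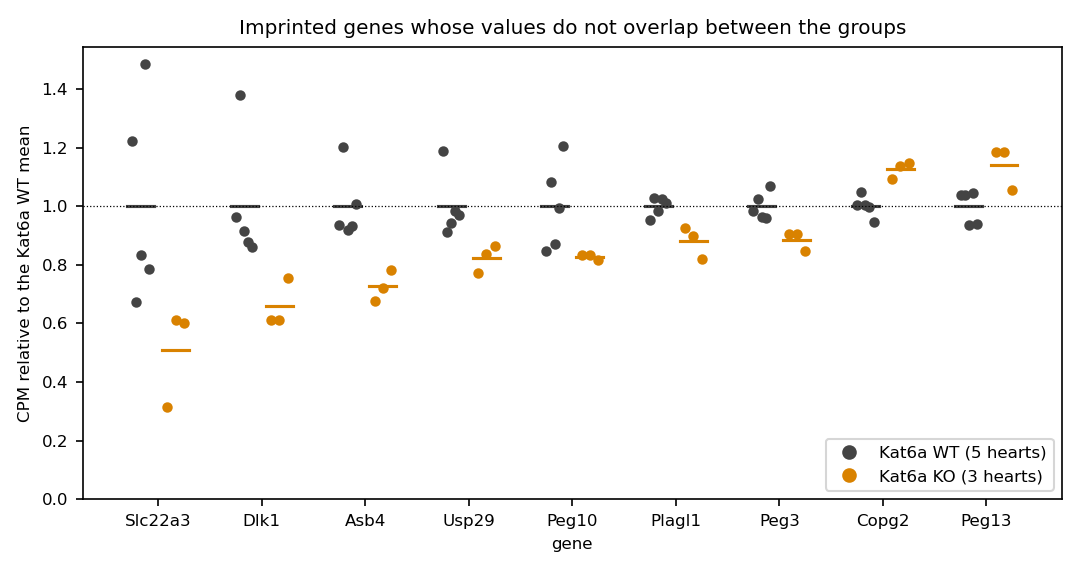
CPM of the 9 imprinted genes whose groups do not overlap, each divided by its Kat6a WT mean; dark points are the 5 Kat6a WT hearts, orange points the 3 Kat6a KO hearts, and bars the means. Copg2 and Peg13 lie above the Kat6a WT hearts and the other 7 below; Asb4, Plagl1 and Copg2 passed the test.

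The Peg3 domain of proximal chromosome 7 was lower in 2 of its 3 members by values that did not overlap, with none past the threshold. Peg3, paternally expressed (chr7:6703892-6730462), had 687, 717, 673, 672 and 747 CPM in Kat6a WT hearts and 633, 632 and 593 CPM in Kat6a KO hearts. The Kat6a KO hearts were all lower, with a log2 fold change of -0.18 ± 0.05 SE (adjusted p = 0.0583, edgeR quasi-likelihood test). That is just outside the threshold. The adjusted p of Peg3 over all alternatives ran from 0.00695 (DESeq2) to 0.245 (replicate block), and was 0.0618 with limma voom and 0.1698 with the Xist covariate. Usp29, a paternally expressed ubiquitin protease gene whose span lies 96 bases from that of Peg3, had 13.8, 10.6, 10.99, 11.4 and 11.3 CPM in Kat6a WT hearts and 8.97, 9.76 and 10.1 CPM in Kat6a KO hearts. Its groups were apart by less than 1 CPM, and Kat6a WT replicate 1 stood above the other hearts (-0.28 ± 0.12 SE, adjusted p = 0.254, edgeR). Zim1, the maternally expressed zinc finger gene of the domain, had 82.9 ± 3.001 CPM in Kat6a WT and 77.3 ± 8.65 CPM in Kat6a KO hearts, and its groups overlapped (adjusted p = 0.523, edgeR).

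In the Dlk1-Meg3 domain on chromosome 12, no member passed: Dlk1 was lower in every Kat6a KO heart, and the groups of the maternally expressed RNAs overlapped. Dlk1, a transmembrane protein related to the Notch ligands (chr12:109452485-109463336), had 81.4, 117, 77.5, 74.4 and 72.9 CPM in Kat6a WT hearts. The Kat6a KO hearts had 51.6, 51.8 and 63.97 CPM. All Kat6a KO hearts were below all Kat6a WT hearts, and Kat6a WT replicate 2 stood far above the rest. The log2 fold change of Dlk1 was -0.60 ± 0.19 SE and was not called (adjusted p = 0.221, edgeR). Without Kat6a WT replicate 2 it was -0.46 ± 0.07 SE and passed (adjusted p = 0.000637, edgeR). DESeq2 (adjusted p = 0.0412), limma voom (0.0258) and edgeR without robust moderation (0.0292) on all 8 hearts passed it too. The replicate block (0.355), the Xist covariate (0.194) and 7 of 8 fits that left out a heart (up to 0.494) did not.

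The maternally expressed long RNAs downstream of Dlk1 had overlapping groups. Meg3 had 47.5, 44.2, 53.2, 36.5 and 52.5 CPM in Kat6a WT hearts and 53.4, 56.4 and 42.9 CPM in Kat6a KO hearts. Rian, the host of small nucleolar RNAs, had 140.1, 152, 136, 121 and 124 CPM in Kat6a WT hearts and 143, 139 and 128 CPM in Kat6a KO hearts. Kat6a KO replicate 3 was the lowest Kat6a KO heart for both RNAs, while Kat6a WT replicate 4 was the lowest of all hearts. The log2 fold changes were 0.12 ± 0.14 SE for Meg3 and 0.02 ± 0.07 SE for Rian (adjusted p = 0.779 and 0.933, edgeR). Mirg, a microRNA host RNA, had 1.75 ± 0.4396 and 1.76 ± 0.339 CPM. Rtl1, a paternally expressed retrotransposon-derived gene whose span shares 6830 bases with that of Meg3, had 3 to 14 counts per heart. The log2 ratio of Dlk1 to Meg3 averaged 0.84 ± 0.38 (SD, n = 5) over Kat6a WT hearts and 0.13 ± 0.39 (SD, n = 3) over Kat6a KO hearts, with overlapping values (exact two-sided permutation test, p = 0.0714, adjusted p = 0.268 over 9 ratios).

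The Igf2r domain on chromosome 17 showed no member past the threshold. Igf2r had 3092, 3293, 3345, 3160.0 and 3606 CPM in Kat6a WT hearts and 3648, 3774 and 3042 CPM in Kat6a KO hearts. Kat6a KO replicates 1 and 2 were the highest and replicate 3 the lowest of all 8 hearts, so the groups overlapped fully (0.08 ± 0.07 SE, adjusted p = 0.651, edgeR). Airn, the paternally expressed long RNA that silences the domain on its own chromosome, had 16.7, 14.2, 13.2, 11.4 and 13.9 CPM in Kat6a WT hearts and 17.8, 15.1 and 15.4 CPM in Kat6a KO hearts. Kat6a WT replicate 1 lay within the Kat6a KO range (0.22 ± 0.11 SE, adjusted p = 0.3996, edgeR). The span of Airn shares 28396 bases, introns included, with that of Igf2r, while the counted length of Airn is 2188 bases. Igf2r had 688278 counts over 8 hearts against 3023 of Airn. Without the strand setting the Airn count is uncertain.

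Slc22a3, a maternally expressed organic cation transporter of the same domain, had 1.83, 1.01, 1.247, 2.22 and 1.17 CPM in Kat6a WT hearts and 0.468, 0.915 and 0.8997 CPM in Kat6a KO hearts. All Kat6a KO hearts were lower, at 14 to 54 counts per heart over both groups. The log2 fold change of -1.001 ± 0.37 SE was not called (adjusted p = 0.183, edgeR). Slc22a2, its paralog, had 0 counts in all 3 Kat6a KO hearts and 0 to 3 counts in Kat6a WT hearts, a difference not detectable at this depth.

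Grb10 and Ddc on chromosome 11 both had overlapping groups. Grb10 had 2531, 2604, 2433, 2434 and 2324 CPM in Kat6a WT hearts and 2351, 2334 and 2291 CPM in Kat6a KO hearts. Kat6a WT replicate 5 lay among the Kat6a KO hearts (-0.08 ± 0.05 SE, adjusted p = 0.4498, edgeR). Ddc, the decarboxylase of dopamine and serotonin synthesis, which has a paternally expressed form in the embryonic heart, had 34.4, 40.5, 34.2, 46.3 and 40.9 CPM in Kat6a WT hearts and 44.4, 38.4 and 44.1 CPM in Kat6a KO hearts. All Kat6a KO hearts were within the Kat6a WT range (0.11 ± 0.09 SE, adjusted p = 0.648, edgeR).

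Gnas and Nnat on chromosome 2 differed in direction and neither passed. Gnas had 1767, 1972, 1846, 1855 and 1913 CPM in Kat6a WT hearts and 2016, 1962 and 2064 CPM in Kat6a KO hearts. Kat6a WT replicate 2 was above Kat6a KO replicate 2, and the other Kat6a WT hearts were below all Kat6a KO hearts (0.11 ± 0.05 SE, adjusted p = 0.304, edgeR). Nnat, a paternally expressed membrane proteolipid, lies within the span of Blcap. It had 62.002 ± 6.297 CPM in Kat6a WT and 51.3 ± 8.99 CPM in Kat6a KO hearts (-0.27 ± 0.11 SE, adjusted p = 0.305, edgeR). Without Kat6a KO replicate 3, the heart with the high liver markers, the log2 fold change of Nnat was -0.42 ± 0.09 SE and passed (adjusted p = 0.0190, edgeR). Its host Blcap had a log2 fold change of 0.14 ± 0.07 SE (adjusted p = 0.397, edgeR), opposite in sign to Nnat. Markers of neural tissue, where Nnat is abundant, summed to between 22.0 and 34.5 CPM across Kat6a WT hearts and between 17.9 and 21.8 CPM across Kat6a KO hearts. Most of that sum was Tubb3 (20.7 ± 5.17 and 14.6 ± 1.93 CPM). Of the other markers, Elavl3 was lower in the mean with overlapping groups (log2 fold change -0.51 ± 0.37 SE, adjusted p = 0.591, edgeR). Pax6 was higher in every Kat6a KO heart (log2 fold change 1.21 ± 0.40 SE, adjusted p = 0.135, edgeR), and Stmn2 (0.03) and Dcx (-0.03) were near 0. Their part in the Nnat level was not tested.

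In the Snrpn-Ube3a domain of central chromosome 7, counts per length differed widely between members. Per kilobase, the Kat6a WT means were 101 CPM for Ndn and 20.5 for Ube3a. Those of Mkrn3, Magel2 and Snrpn were 1.33, 0.320 and 0.177 CPM. Ndn had 174, 164, 173, 149.7 and 172 CPM in Kat6a WT hearts and 155, 151 and 157 CPM in Kat6a KO hearts. Kat6a WT replicate 4 was the lowest of all 8, and the other Kat6a WT hearts were above the Kat6a KO hearts (-0.11 ± 0.05 SE, adjusted p = 0.338, edgeR). Snrpn, a spliceosomal protein gene known for its level in brain, had 0.169, 0.431, 0.493, 0.653 and 0.364 CPM in Kat6a WT hearts and 0, 0.203 and 0.135 CPM in Kat6a KO hearts. These are 0 to 17 counts per heart, and Kat6a WT replicate 1 lay below Kat6a KO replicate 2 (-2.01 ± 0.74 SE, adjusted p = 0.194, edgeR). Snurf, whose span shares 22705 bases, introns included, with that of Snrpn, had 0 counts in every heart. Reads in shared bases may have been left out of both genes. The Snrpn count is thus uncertain and need not show a low RNA level.

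Ube3a, a ubiquitin ligase that is maternally expressed in neurons, had 126 ± 4.73 CPM in Kat6a WT and 124 ± 5.53 CPM in Kat6a KO hearts (-0.02 ± 0.05 SE, log2). Magel2 had 1.49 ± 0.336 and 1.103 ± 0.188 CPM, and Mkrn3 had 3.39 ± 0.6201 and 3.59 ± 0.617 CPM. All 3 had overlapping groups, and their adjusted p-values were 0.903, 0.564 and 0.911 in the same order (edgeR).

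Single imprinted genes and host-gene pairs made up the remainder. Zdbf2, paternally expressed on chromosome 1, had 55.9, 52.7, 53.97, 55.5 and 55.1 CPM in Kat6a WT hearts and 55.4, 52.2 and 53.3 CPM in Kat6a KO hearts. It was among the tightest of the members, with overlapping groups (-0.03 ± 0.05 SE, adjusted p = 0.896, edgeR). Peg13, a paternally expressed RNA that lies within the span of Trappc9, had 20.8, 20.8, 18.8, 20.97 and 18.9 CPM in Kat6a WT hearts and 23.8, 23.8 and 21.2 CPM in Kat6a KO hearts. The Kat6a KO hearts were all above, by 0.19 ± 0.08 SE on the log2 scale, without passing (adjusted p = 0.279, edgeR). Its host Trappc9, a trafficking-complex subunit, had 47.7 ± 3.35 and 49.1 ± 1.05 CPM with overlapping groups (adjusted p = 0.838, edgeR).

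Zrsr1, a splicing-factor retrogene within Commd1, had 9.099 ± 1.19 CPM in Kat6a WT and 9.67 ± 2.19 CPM in Kat6a KO hearts, and Commd1 had 61.2 ± 1.53 and 62.7 ± 2.12 CPM. Nap1l5, a retrogene within Herc3, had 1.76 ± 0.538 and 1.61 ± 0.359 CPM. Impact had 41.9 ± 3.27 and 42.6 ± 2.27 CPM. None of these 4 passed, with adjusted p-values from 0.8304 to 0.9299 (edgeR), and their groups overlapped. In all, the spans of 23 of the 36 members overlap that of another counted gene. Spans run from start to end with introns, and shared exon bases were not worked out. Some of the overlapped genes had 0 counts, such as Peg3os at Peg3. How far reads of such pairs are mixed is therefore not known.

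The pathway that maintains imprints was read from a list of 25 regulators, among them the methyltransferases, the TET dioxygenases, ZFP57, TRIM28, CTCF and YY1. Of these, 23 were tested and 0 passed, beside 2.67% of all genes. An unadjusted p under 0.05 was reached by 3 (13.04%, beside 14.2% of all genes, edgeR quasi-likelihood test). DESeq2 and limma voom called 0 as well. The smallest p-values were those of Zfp445, a zinc finger protein with a role like that of ZFP57, and Trim28. Zfp445 had 84.7 ± 3.49 CPM in Kat6a WT and 93.1 ± 6.28 CPM in Kat6a KO hearts (0.14 ± 0.05 SE, adjusted p = 0.239, edgeR). Trim28 had 715 ± 8.95 and 665 ± 25.2 CPM (-0.10 ± 0.04 SE, adjusted p = 0.274, edgeR). All Kat6a KO hearts were below all Kat6a WT hearts for Trim28 and above them for Dnmt3a. These were 2 of the 23 regulators (8.70%), beside 9.59% of all genes with groups that did not overlap. Dnmt3l and Dppa3, which act in germ cells and the early embryo, had 0 counts in every heart. The median log2 fold change of the 23 was -0.02.

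A list of 41 imprinted genes that are not members, those of distal chromosome 7 included, gave 36 tested, of which 1 rose and 0 fell (2.78%, beside 2.67% of all genes). An unadjusted p under 0.05 was reached by 8 (22.2%, beside 14.2% of all genes, edgeR). The gene that rose was Calcr, the calcitonin receptor, next to the Peg10 domain (chr6:3685678-3764713). It had 2.67, 2.49, 2.23, 3.39 and 4.24 CPM in Kat6a WT hearts and 6.66, 5.95 and 4.63 CPM in Kat6a KO hearts. The Kat6a KO hearts were all higher (0.94 ± 0.20 SE, adjusted p = 0.0116, edgeR quasi-likelihood test). The call of Calcr was lost without Kat6a KO replicate 1 (adjusted p = 0.129) or replicate 2 (0.0556). The median log2 fold change of the 36 was 0.00041, beside -0.00015 over all genes.

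Whether the 2 sides of a domain moved apart was read as the log2 ratio of 1 paternally to 1 maternally expressed gene in each of 9 domains (for chromosome 12 the maternal gene was Meg3, although Rian had the higher level). In all 9 the ratios of the groups overlapped and none passed an exact two-sided permutation test (adjusted p from 0.268 to 0.857). The smallest p that 56 splits of 8 hearts allow is 0.0179, so a single ratio could not go below an adjusted p of 0.161 and the absence of calls says little. The largest difference, -0.71, was that of Dlk1 over Meg3 given above. Mest over Copg2 went from 4.89 ± 0.05 (SD, n = 5) to 4.78 ± 0.11 (SD, n = 3), and Peg10 over Asb4 from 1.32 ± 0.18 to 1.51 ± 0.12. Peg3 over Zim1 had means of 3.08 ± 0.10 and 3.01 ± 0.15 in that order. Airn over Igf2r was -7.90 ± 0.22 and -7.76 ± 0.18. Ndn over Ube3a was 0.40 ± 0.08 and 0.32 ± 0.05. These comparisons were added after the values had been seen. Parental expression of Copg2, Ube3a, Commd1 and Trappc9 depends on tissue, and the counts do not separate alleles. Ratios with these genes need not compare the 2 parental sides in heart.

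Co-variation between hearts was measured on log2 CPM after the genotype mean was removed, for 33 pairs of imprinted genes, of which 31 had both genes tested. Of the 31, 19 were neighbours in a domain and 12 joined genes of different domains. None passed after Benjamini-Hochberg adjustment, by Pearson's r (smallest adjusted p = 0.992) or Spearman's rho (0.941). The exact two-sided permutation test exchanged hearts within a genotype in 720 ways, and its smallest possible p is 0.00139. By r, 1 pair had an unadjusted p under 0.05, and by rho also 1, Snrpn with Ube3a in both (r = -0.78, permutation p = 0.0444; rho = -0.86, permutation p = 0.0319; 8 hearts). That pair rests on the 0 to 17 counts of Snrpn, and r was -0.46 without the 2 hearts farthest from the median of Snrpn.

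As a description over pairs that share hearts and genes, r was no higher at the median for neighbours in a domain than for genes of different domains. That median was -0.01 over 19 neighbours, 9 of them above 0, and 0.15 over 12 pairs across domains, 7 of them above 0. Dlk1 and Grb10 had the highest r, 0.66 (permutation p = 0.165, rho = 0.52, p = 0.257), and 0.90 without the 2 farthest hearts. With single hearts left out in turn, r of Dlk1 and Grb10 ran from 0.12 to 0.84, so it depends on which hearts entered. Plagl1 and Peg3 had r = 0.56 (permutation p = 0.193, rho = 0.52, p = 0.226), which was 0.24 without those 2. Peg10 and Asb4 had r = 0.51 (permutation p = 0.360, rho = 0.43, p = 0.371) and 0.70 without the 2 farthest. Meg3 and Rian, read from the same strand of a domain, had r = 0.36 (permutation p = 0.440, rho = 0.10, p = 0.857), which turned to -0.84 without the 2 farthest hearts and so rests on them. With 8 hearts, these values do not resolve a shared rise and fall of imprinted genes.

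**Figure D4:**
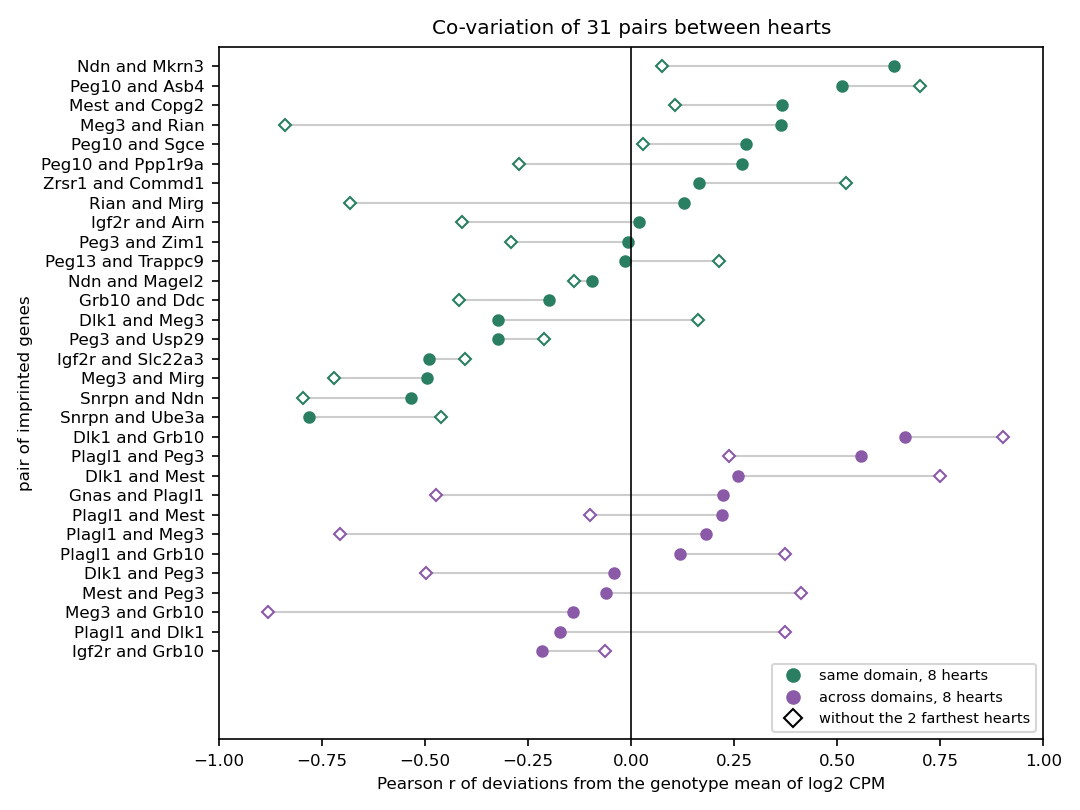
Pearson's r between hearts of 31 pairs of imprinted genes, from log2 CPM with the genotype mean removed; green points are neighbours in a domain, purple points pairs across domains, and diamonds the same r without the 2 hearts farthest from the median of the first gene. Points spread on both sides of 0, from -0.78 to 0.66, and several diamonds lie across 0 from their point.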

How the data were processed

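RNA of E10.5 heart samples (Kat6a WT, n = 5; Kat6a KO, n = 3, by the genotype in the labels) was sequenced as TruSeq stranded libraries, per the labels' protocols. The authors counted reads per Entrez gene with featureCounts on mm10 after bcl2fastq, per the submitters' processing notes; which versions, aligner, annotation and strand setting were used is not given in those sources. Raw counts without normalization were deposited, identical in the table and the 8 single-heart files, which also hold a gene length. Symbols were found for 25275 IDs in the RefSeq table of GRCm38.p6; the 1904 others held 1.05% of counts and stayed in the tests. No value column was left unused.

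Genes were kept by filterByExpr (15086) and tested with edgeR's quasi-likelihood test (4.0.16, robust fit, trimmed mean of M values) in R 4.3.3, without covariates, adjusted by Benjamini-Hochberg over all genes at 0.05. SE was derived from the fold change and its F statistic. The biological coefficient of variation was 9.10%, which rather than counting error sets the precision of all but low genes. On simulated counts for 14943 genes of Kat6a KO against Kat6a WT, the test recovered 44% of genes changed by 1.25-fold, 66% of those changed by 1.5-fold and 98% of those changed by 2-fold, and 7.27% of calls were false. Alternatives were DESeq2 (1.42.0), limma voom (3.58.1), other scalings and filters, a replicate block, Xist or erythroid covariates and leaving out hearts. Correlations used Python 3.11.15 and log2 CPM with a prior count of 2. Promoter letters came from the RefSeq promoter table.

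Members and lists were chosen with earlier results of these data known. Values in every heart are given for Dlk1, Meg3, Rian, Igf2r, Airn, Grb10, Ddc, Peg3, Mest, Peg10, Plagl1, Gnas, Snrpn, Ndn and Zdbf2 by rule, for members past the threshold and members whose groups do not overlap, and for Calcr. Hearts that share a replicate number did not deviate together, so the numbers were not taken as pairs.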

Additional observations from a re-analysis of the deposited data

Results flagged for a closer look

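In 36 groups of 5 Kat6a WT hearts, 1 for each imprinted gene, a single heart stood apart from the others in 3, and chance gives about 1 in 20. The measure was the gap to the nearest heart over the range of the group, with a critical value of 0.71 for 5 hearts. Dlk1 stood at 117 CPM in Kat6a WT replicate 2, with the next heart at 81.4 CPM (gap over range 0.806), and its call depends on that heart as given above. Usp29 stood at 13.8 CPM in Kat6a WT replicate 1, with the next at 11.4 CPM (0.747). Zrsr1 stood at 11.2 CPM in Kat6a WT replicate 5, with the next at 8.91 CPM (0.727). The 3 values came from 3 different hearts. The groups of 3 Kat6a KO hearts are too small for this measure.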

How the results depend on the processing

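Of 620 recomputed member fold changes, 555 kept direction and side of the threshold, 28 lost a call, 9 gained one and 28 changed sign; unless said otherwise, the cause was not tested. Members called were 3 of 33 by edgeR, 5 of 36 with DESeq2 and 1 of 33 with the replicate block. They were 0 of 33 with the Xist covariate and 0 without the Xist hearts. Over all genes, edgeR called 403 of 15086, DESeq2 561 of 20446, the replicate block 181 of 15086 and the Xist covariate 284 of 15086. With limma voom 370 of 15086 genes passed, with no count filter 472 of 20446 and with upper-quartile scaling 398 of 15086. Paternally expressed members called were 1 by edgeR, 3 with DESeq2, 2 with limma voom, 2 with no count filter, 2 with the erythroid covariate, and 0 with upper-quartile scaling, the block, the Xist covariate and no Xist hearts. Maternally expressed members called were 2 by edgeR, 1 with voom, no robust moderation and the block, and 0 with the Xist covariate or no Xist hearts. Other imprinted genes called were 1 by edgeR, 3 with DESeq2, voom, no count filter, the Xist covariate and the erythroid covariate, and 2 with the block and no Xist hearts. Regulators called stayed at 0 in all alternatives run. The paternal median was -0.067 with at least 1 CPM in 3 hearts, by fewer genes tested, and -0.15 with the Xist covariate.

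Leaving out hearts in turn gave 194 (without Kat6a KO replicate 1) to 496 genes against 403, 0 to 3 members, 0 to 2 paternally and 0 to 2 maternally expressed members and 0 to 2 other imprinted genes. The paternal median ran from -0.12 to -0.011 and the maternal from -0.014 to 0.031. Without Kat6a KO replicate 3, 263 genes passed.

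Numbers shared between genotypes did not pair the hearts (correlations of 0.07, -0.12 and -0.05, own number highest in 0 of 3). The replicate block called 181 genes against 403, with Copg2 at an adjusted p of 0.303 and Plagl1 at 0.278 (edgeR). Kat6a WT replicates 4 and 5, the Xist hearts, have no Kat6a KO heart of their number. In the block they therefore do not inform the fold change. That fold change rests on the same hearts as the fit without the Xist hearts (Copg2 at 0.145, log2, in both). The block is thus not a separate check beside that fit.

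Signs turned for values near 0. Ppp1r9a was -0.0015 with DESeq2, -0.00099 with DESeq2 size factors and -0.0014 with no count filter. Rian was -0.064 with the block, -0.076 with the Xist covariate and -0.063 without the Xist hearts. Impact was -0.014, -0.022 and -0.016 in the same 3, and Mest -0.0102 with the Xist covariate. Leaving out hearts, ranges that crossed 0 were Mirg -0.14 to 0.16, Ppp1r9a -0.019 to 0.029, Impact -0.0045 to 0.061, Rian -0.014 to 0.067, Mkrn3 -0.015 to 0.21, Ube3a -0.056 to 0.0048, Zrsr1 -0.094 to 0.22, and Meg3 with Rian r -0.068 to 0.65 (-0.84 without the 2 farthest). Snrpn was under the filter in some alternatives and had 12 values. Counting depth limits Slc22a3, Magel2, Nap1l5 and Mirg. Few counts also limit Snrpn, whose count is uncertain where it shares bases with Snurf.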
